A study of Mus musculus with 6 samples.

Results

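Serpina3n and Il33 are 2 of the 32285 genes counted in 6 coronal brain sections of mice at 3 ages. They were chosen by name as glial stress genes and selected on values measured in these sections, namely the change of Serpina3n between old and young white matter and the small change of Il33 in the same fits. Their changes with age are therefore given as a description, without a test. Serpina3n (ENSMUSG00000021091) lies on chromosome 12, from 104406729 to 104414329 on the plus strand, with 1 annotated transcript of 5 exons. Il33 (ENSMUSG00000024810) lies on chromosome 19, from 29925114 to 29960718 on the plus strand, with 5 annotated transcripts of up to 8 exons. Neither overlaps another annotated gene (GENCODE M21, GRCm38).

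All animals were males of the inbred laboratory strain C57BL/6J, aged 6 months (young), 18 months (middle) or 21 months (old), with 2 sections per age and no other treatment or allele given. Transcripts were counted with Visium, in which a frozen section is laid over an array of barcoded spots and each unique molecular identifier (UMI) counts 1 captured molecule. A spot covers a small region and usually takes in more than 1 cell, often of different types. Young 1, young 2, middle 1 and old 1 shared slide 1, and middle 2 and old 2 shared slide 2. The labels give 2 males per age but do not tie sections to animals, so sections were treated as different mice, and the spread between sections may be in part technical.

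Serpina3n encodes a secreted inhibitor of serine proteases and belongs to a mouse gene cluster that corresponds to the human gene of alpha-1-antichymotrypsin. Its transcript is known as a marker of reactive astrocytes and of a disease-associated state of oligodendrocytes, the cells that make myelin. Il33 encodes interleukin 33, a nuclear cytokine of the interleukin 1 family that is released from damaged cells, and in brain it is made mainly by oligodendrocytes and astrocytes. Outside the cell it binds the receptor ST2, encoded by Il1rl1, together with the shared co-receptor encoded by Il1rap, and acts through MYD88 and NF-kB.

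The bases before the annotated starts are shown because the genes had different patterns in the same spots. Il33 has a pair of starts, and the counts are per gene, so transcripts from the first and the second start could not be told apart. Sequences are from RefSeq (GRCm38.p6), plus strand, 5′ to 3′, and capitals mark matches to the motifs searched. For Serpina3n the 188 bases at chr12:104406458-104406645 are shown, which end where the earliest RefSeq transcript of the gene begins. For Il33 the 250 bases before the first start (chr19:29924863-29925112) and before the second (chr19:29945540-29945789) are shown.
Serpina3n: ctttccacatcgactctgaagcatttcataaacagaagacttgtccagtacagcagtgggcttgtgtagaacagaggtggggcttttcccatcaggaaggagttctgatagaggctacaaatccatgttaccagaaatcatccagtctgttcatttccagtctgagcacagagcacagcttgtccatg
Il33 first start: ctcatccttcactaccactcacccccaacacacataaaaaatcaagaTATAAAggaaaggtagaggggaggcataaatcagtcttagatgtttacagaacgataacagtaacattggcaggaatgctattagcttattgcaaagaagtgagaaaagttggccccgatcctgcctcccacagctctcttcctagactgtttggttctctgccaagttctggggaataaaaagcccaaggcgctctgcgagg
Il33 second start: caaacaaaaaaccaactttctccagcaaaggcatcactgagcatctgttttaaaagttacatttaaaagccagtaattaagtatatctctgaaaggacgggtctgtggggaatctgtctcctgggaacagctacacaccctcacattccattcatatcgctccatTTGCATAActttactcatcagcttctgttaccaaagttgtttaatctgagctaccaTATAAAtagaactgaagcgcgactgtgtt

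Both strands of the 250 bases before each start were searched for 5 motifs. These were TTCNNNGAA (bound by STAT factors), TGANTCA (AP-1), TTGCNNAA (C/EBP), the NF-kB motif and TATAAA (the TATA box). The Serpina3n window was counted from an annotated start at 104406708. It comprises the 188 bases shown and further bases, not shown, that lie after the beginning of the earliest transcript. This window held no match. Before the first Il33 start there was 1 match, TATAAA at positions -203 to -198 counted from the start. Before the second there was TTGCATAA, a TTGCNNAA match, at -85 to -78 and TATAAA at -29 to -24. Among 32851 windows of the same length, 7.02% held TTCNNNGAA, 6.75% TGANTCA, 9.56% TTGCNNAA, 7.25% the NF-kB motif and 12.4% TATAAA. A match describes letters only.

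The sections held 60939185 to 77557934 UMIs in 2573 to 2973 spots, and 1 spot with under 500 UMIs was left out in each of middle 2 and old 2. The median was 20370 and 21766 UMIs per spot in the old sections and 25904.5 to 30093 in the other 4. Spots of all sections were clustered together without the genes of the lists below, and 15 of 19 clusters were named as 9 regions from marker genes, which makes a region a group of spots with like transcripts and not outlined anatomy. White matter, from a cluster with Trf, Mal and Cldn11 among its leading genes and, at the border with cortex, one led by Ccn2 and Cplx3, comprised 280 to 359 spots and 4010092 to 4624137 UMIs per section. Its 10 myelin markers summed to 35780 to 49627 CPM, against 6594 to 7712 in whole sections. CPM is counts of UMIs scaled to 1e6 per sum. TMM factors were applied to levels of single genes in whole sections, white matter, all other spots and regions. Marker sums, bands and bins by myelin share, clusters, subsets of spots and the search for most alike genes used CPM without these factors. Hippocampal spots counted 45 in young 1 and 168 to 274 in the other sections.

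Serpina3n was highest in the old sections and Il33 differed little between ages. In the whole section Serpina3n measured 14.3 and 13.9 CPM in young, 19.9 and 26.5 in middle and 27.5 and 40.7 in old sections. These values rest on 1064 to 2519 UMIs per section. The 3 ages did not overlap, although middle 2 and old 1 lay close together. How many of all genes separate the ages alike was not counted. The sections also differed in the regions they caught. Hippocampal spots, high in Serpina3n, gave 111 of its UMIs in young 1 and 482 in young 2. In middle 2, 18 hypothalamic spots gave 356 of its 2020 UMIs. What part the regions have in these levels of Serpina3n was not tested. The log2 fold change was 1.27 (SE 0.23) between old and young, 0.71 (SE 0.23) between middle and young and 0.55 (SE 0.23) between old and middle, contrasts that share sections. Without 1 section, old less middle ran from 0.24 (without old 2) to 0.81 (without old 1). Il33 measured 75.4 and 68.2 CPM in young, 84.9 and 78.2 in middle and 75.1 and 90.8 in old sections, from 5294 to 6366 UMIs. Old 1 lay between the young sections, so these groups overlapped. The log2 fold change of old against young was 0.21 (SE 0.099), and it ran from 0.065 without old 2 to 0.34 without old 1.

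In white matter the change of Serpina3n was larger, and by the means of summed CPM most of it lay between the middle and the old sections. The share of spots with a UMI, given below, had its larger step between young and middle when unthinned. When spots were thinned to 5000 UMIs, the larger step of that share was between middle and old. Thinned to 10000 UMIs, which left out 63 to 165 shallower spots per section, its larger step was again between young and middle. The shares were then 16.6 and 18.0% in young, 37.0 and 38.2% in middle and 49.4 and 63.0% in old sections. The summed level of Serpina3n in white matter was 47.2 and 19.1 CPM in young, 51.5 and 59.3 in middle and 164.2 and 214.9 in old sections, from 80 to 922 UMIs. Both old sections lay far above the other 4, while young 1 came within reach of the middle sections. The mean was 33.2 ± 19.9 CPM (SD, n = 2) in young, 55.4 ± 5.5 in middle and 189.6 ± 35.9 in old white matter. The log2 fold change was 2.53 (SE 0.45) between old and young and 1.78 (SE 0.41) between old and middle. Old less young was 2.00 without young 2 and 3.30 without young 1. Between middle and young it was 0.75 (SE 0.49), and it was 0.23 without young 2 and 1.53 without young 1. On slide 1 alone the white matter level was 47.2, 19.1, 51.5 and 164.2 CPM in young 1, young 2, middle 1 and old 1. On slide 2 it was 59.3 in middle 2 and 214.9 in old 2. In sums of spots, more cells that make a transcript and more transcript per cell cannot be told apart.

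Il33 in white matter measured 416.4 and 398.8 CPM in young, 413.6 and 378.1 in middle and 441.6 and 436.4 in old sections. Its log2 fold change was 0.11 (SE 0.097) between old and young, -0.042 (SE 0.097) between middle and young and 0.15 (SE 0.097) between old and middle. These values are near their standard errors, and the old sections lay just above the other 4. Outside white matter Serpina3n measured 12.5 and 13.7 CPM in young, 17.8 and 24.4 in middle and 19.1 and 27.7 in old sections, so middle and old overlapped there. On each slide the old section lay slightly above the middle section there (17.8 and 19.1 on slide 1, 24.4 and 27.7 on slide 2). Il33 outside white matter measured 56.6 and 49.4 CPM in young, 63.5 and 59.8 in middle and 52.8 and 65.0 in old sections. Both middle sections lay above both young sections, and the old sections overlapped with each of the other ages.

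**Figure D1:**
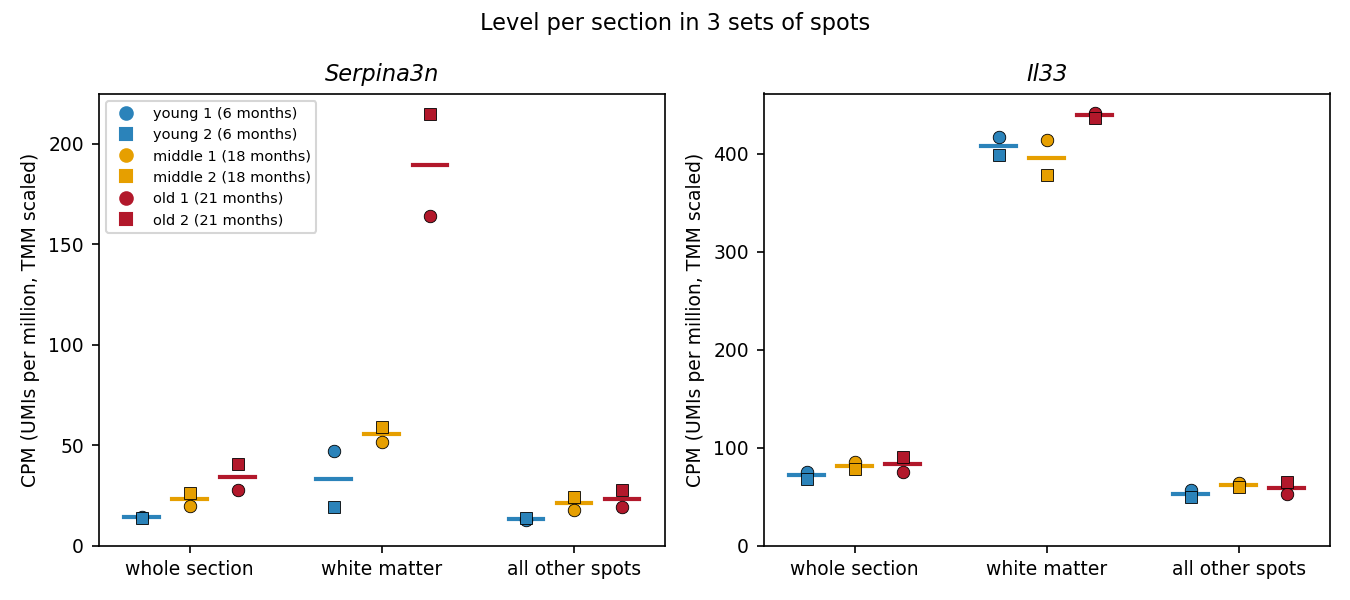
CPM of Serpina3n (left) and Il33 (right) per section, linear axis, in the whole section, in white matter and in all other spots. Points are sections (circles replicate 1, squares replicate 2) and bars are means of 2 sections; in white matter the old sections have 164.2 and 214.9 CPM of Serpina3n, while Il33 lies between 378.1 and 441.6 CPM at every age.

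The share of UMIs from the 10 myelin genes places each spot on a scale from grey to white matter without clustering. Spots of each section were ranked on it and split into 10 bands of equal size, whose median myelin share ran from 0.056 to 0.084% in band 1 and from 4.25 to 6.13% in band 10. Il33 increased at all 9 steps in 6 of 6 sections. It went from 11.9 to 17.8 CPM in band 1 to 461.9, 476.7, 463.9, 429.8, 521.7 and 528.2 CPM in band 10 (young 1, young 2, middle 1, middle 2, old 1 and old 2). Band 10 exceeded band 9 by 2.24 to 2.52 times in every section. The log2 ratio of band 10 to the lower 50% of spots was 3.91 ± 0.17 (SD, n = 6), positive in 6 of 6 sections (two-sided exact sign-flip permutation test, p = 0.03125, 0.046875 after Benjamini-Hochberg adjustment over 3 tests). This is the smallest p that 6 sections allow, 2 of 64 sign patterns.

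Serpina3n did not follow the scale step by step. In bands 1 to 8 it lay between 8.5 and 29.0 CPM except for band 1 of middle 2, with 55.2 CPM, and it increased at 3 to 6 of the 9 steps. In band 10 it measured 36.2 CPM in young 1, 14.8 in young 2, 66.9 in middle 1, 64.7 in middle 2, 210.3 in old 1 and 312.0 in old 2. Band 10 against band 9 was 1.04 and 0.787 times in young, 2.93 and 2.92 in middle and 4.50 and 4.65 in old sections. The most myelin-rich spots thus stood above their neighbours in the middle and old sections and not in the young. The log2 ratio of band 10 to the lower 50% of spots was 1.62, -0.011, 1.97, 1.196, 3.58 and 3.92 in the same order of sections. Its mean was 2.04 ± 1.48 (SD, n = 6), positive in 5 of 6 sections, and did not pass the threshold (exact sign-flip permutation test, p = 0.0625, adjusted 0.0625). With the top 5% or 20% of spots in place of the top 10%, with 8 myelin genes, or with myelin and mitochondrially encoded genes left out of the total, all 6 sections were positive, with p = 0.03125 before adjustment in the same exact permutation test. With only spots of at least 5000 UMIs, the ratio of Serpina3n did not pass the threshold, as in the main run.

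Within each section the ratio of Serpina3n was smaller than that of Il33. The difference of the log2 ratios was -2.22 and -3.99 in young, -1.83 and -2.497 in middle and -0.60 and -0.055 in old sections, with a mean of -1.87 ± 1.41 (SD, n = 6). It was negative in 6 of 6 sections (exact sign-flip permutation test, p = 0.03125, adjusted 0.046875). The genes were selected on white matter values of these same sections. The p-values by myelin share, here and above, therefore describe these sections and give no independent support. In old 2 the ratios of the genes were nearly equal.

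**Figure D2:**
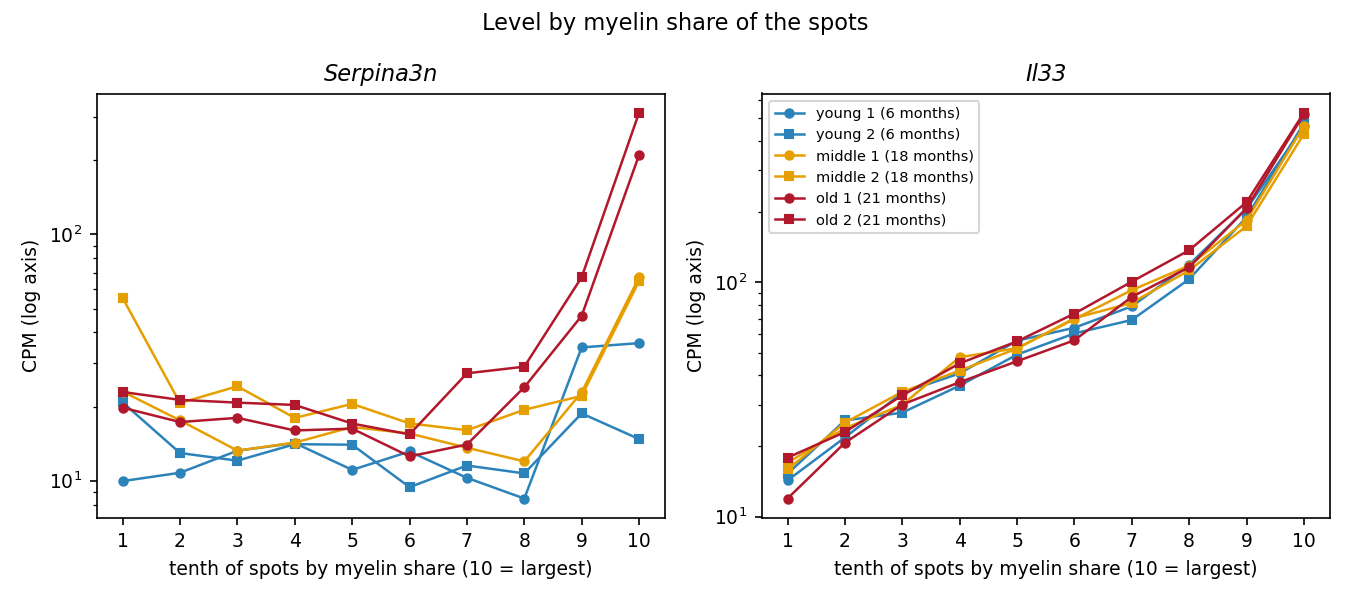
CPM (log axis) of Serpina3n (left) and Il33 (right) in 10 bands of spots ranked by myelin share within each section, 1 line per section. The Il33 lines rise at all 9 steps and lie close together, while the Serpina3n lines show no steady rise and lie farthest apart in band 10, from 14.8 CPM in young 2 to 312.0 CPM in old 2.

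Because myelin share itself differed between ages in white matter, levels were also compared at fixed myelin share. The 10 myelin markers summed to 47906 and 49627 CPM in young, 35780 and 42349 in middle and 42952 and 43550 in old white matter. In spots with 4 to 6% of UMIs from myelin genes Serpina3n measured 39.0 and 13.3 CPM in young, 62.7 and 92.1 in middle and 215.0 and 309.6 in old sections. In spots with 0.5 to 1% it measured 11.4 and 10.2 in young, 14.3 and 17.3 in middle and 16.0 and 21.6 CPM in old sections. Young sections lay below the other 4 in both bins, while old lay above middle at the high share and overlapped it at the low share. Il33 at 4 to 6% measured 390.7 and 419.1 in young, 499.3 and 518.6 in middle and 549.5 and 540.1 CPM in old sections. At that fixed share the young sections lay below all others, which was not so in the white matter sums. At 0.5 to 1% Il33 lay between 72.5 and 90.0 CPM, with both young sections (73.2 and 72.5) below the other 4. Young sections also lay lowest in the bins of 1 to 2% and 2 to 4%. This order did not hold at the ends of the scale. Above 6% the young sections (554.9 and 517.0 CPM) overlapped with middle (566.8 and 502.5, the latter from 16 spots). Below 0.5% the young sections (32.7 and 32.1) overlapped with old (31.1 and 33.8).

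The regions ranked differently for each gene. Il33 was highest in white matter, with 414.1 ± 23.6 CPM (SD, n = 6 sections of all ages). Next came choroid plexus and ventricle with 177.8 ± 67.0 and the subcortical GABAergic spots with 149.2 ± 25.7. Thalamus had 87.1 ± 11.2, striatum 81.6 ± 10.5, hypothalamus 57.1 ± 5.9 and isocortex 41.8 ± 3.3 CPM. The lowest were the hippocampal formation with 33.8 ± 9.0 and meninges with 27.8 ± 2.4 CPM. White matter exceeded choroid plexus and ventricle in 6 of 6 sections, by a mean log2 ratio of 1.29 ± 0.49 (SD). Neighbours whose mean log2 ratio was within 1 SD over sections were choroid plexus and the GABAergic spots, thalamus and striatum, isocortex and hippocampus, and hippocampus and meninges.

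Serpina3n was highest on average in choroid plexus and ventricle, white matter and hippocampus, in an order that differed between ages. Hippocampus exceeded both other regions in each young section, and white matter was above hippocampus in each old section. Over 6 sections, which mix these orders, the mean was 100.05 ± 111.04, 92.7 ± 77.9 and 55.9 ± 4.3 CPM (SD). Hypothalamus had 35.2 ± 24.1 CPM, and the other 5 regions lay between 6.4 ± 2.4 in striatum and 12.8 ± 8.1 in the GABAergic spots. In the hippocampal formation it measured 61.9 and 52.5 CPM in young, 51.3 and 56.9 in middle and 53.0 and 59.6 in old sections. The ages overlapped there, with a log2 fold change of 0.0049 (SE 0.13) between old and young. Hippocampal Serpina3n came mostly from the cluster led by Spink8, Cabp7 and Fibcd1, genes of CA pyramidal layers, where it measured 45.4 to 72.5 CPM. In the cluster with C1ql2 and Prox1, genes of the dentate gyrus, among its leading genes, it measured 29.95 to 37.3 CPM in 5 sections and 205.7 in young 1, from 5 spots with 38 UMIs.

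Choroid plexus and ventricle had the widest range of Serpina3n, with 43.6 and 12.8 CPM in young, 85.0 and 57.4 in middle and 81.3 and 320.2 in old sections. Old 2 stood far above the rest, and the log2 fold change of old against young was 2.75 with an SE of 1.04. In hypothalamus it measured 15.2 and 20.5 in young, 30.4 and 79.7 in middle and 21.0 and 44.6 CPM in old sections, so the highest section was of middle age. In thalamus it measured 10.9 and 5.4, 10.9 and 8.8, and 13.0 and 18.7 CPM at the 3 ages, a log2 fold change of 1.02 (SE 0.33) between old and young. The subcortical GABAergic spots had a log2 fold change of 2.10 (SE 0.50), but from only 4 to 21 UMIs per section. In isocortex the level was 6.1 to 7.8 CPM in all 6 sections, with a log2 fold change of 0.11 (SE 0.15). Within white matter, the core cluster had 48.2, 19.7, 58.4, 68.7, 199.3 and 252.9 CPM (young 1 to old 2). The border cluster led by Ccn2 had 15.9, 16.2, 18.7, 17.9, 26.2 and 21.9 CPM in the same order. These border values rest on only 7 to 20 UMIs per section. Il33 in the border cluster was 236.4 to 287.5 CPM, against 411.9 to 486.9 in the core. For Il33 the regional log2 fold change of old against young ran from -0.079 (SE 0.25) in the hippocampal formation to 0.49 (SE 0.37) in choroid plexus and ventricle. In striatum it was 0.40 (SE 0.11), from 67.4 and 72.3 CPM in the young to 86.0 and 81.0 in middle and 86.5 and 96.5 in old sections.

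**Figure D3:**
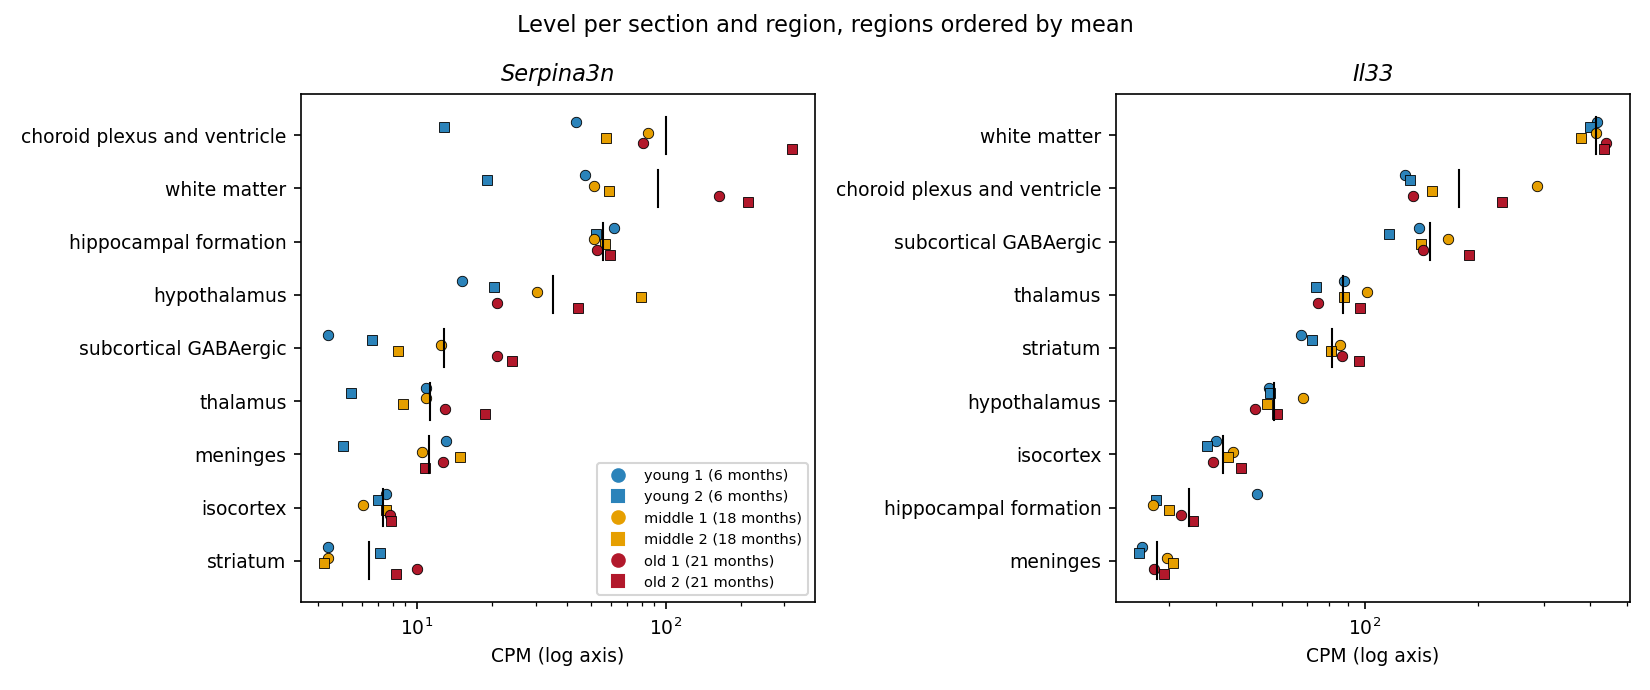
CPM (log axis) of Serpina3n (left) and Il33 (right) per section in 9 regions, ordered by the mean over 6 sections (black bar). Il33 has white matter apart from all other regions, between 378.1 and 441.6 CPM, whereas Serpina3n spans 12.8 to 320.2 CPM in choroid plexus and ventricle and 51.3 to 61.9 CPM in the hippocampal formation.

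The share of each gene's UMIs that fell in white matter shows the same contrast. White matter spots held 5.35 to 6.94% of all UMIs of a section. They held 17.3 and 7.39% of the Serpina3n UMIs in young, 15.8 and 12.9% in middle and 34.5 and 36.6% in old sections. For Il33 these shares were 29.0 and 31.5%, 29.8 and 27.8%, and 33.9 and 33.3%. Serpina3n was also more concentrated in few spots. The fullest 1% of spots of a section held 17.3 to 24.1% of its UMIs, against 6.67 to 8.78% for Il33. A share of this kind also depends on the number of UMIs, which was lower for Serpina3n. The genes were not matched for it. There were 7 and 4 young, 10 and 22 middle and 22 and 37 old spots with at least 10 Serpina3n UMIs (replicates 1 and 2). In the old sections 13 and 23 of these were white matter spots, and in middle 2, 18 of the 22 were hypothalamic.

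Spot by spot, more white matter spots held Serpina3n in the old sections. The share with at least 1 UMI was 20.4 and 18.7% in young, 44.3 and 46.6% in middle and 59.8 and 64.8% in old sections. Median depth in these spots was 10302 to 15174 UMIs, so each spot was also thinned to 5000 UMIs, which left out 6 to 29 shallower spots per section. The thinned share was 10.1% (exact 95% binomial interval 6.94 to 13.98) in young 1, 8.5% (5.71 to 12.03) in young 2, 23.4% (18.5 to 28.8) in middle 1, 26.3% (21.2 to 31.9) in middle 2, 43.4% (37.8 to 49.0) in old 1 and 52.9% (47.2 to 58.6) in old 2. The intervals cover counting error only. In all other spots, thinned alike from median depths of 21658.5 to 32605.5 UMIs, the shares were 5.6 and 6.3%, 7.2 and 9.9%, and 9.0 and 10.8% at the 3 ages. For Il33 the thinned share of white matter spots was 82.1 and 84.2% in young, 80.7 and 84.3% in middle and 86.4 and 88.2% in old sections, and 93.9 to 97.2% unthinned. At least 5 Serpina3n UMIs were seen in 9 white matter spots of young 1, 8 and 10 of the middle and 40 and 67 of the old sections.

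**Figure D4:**
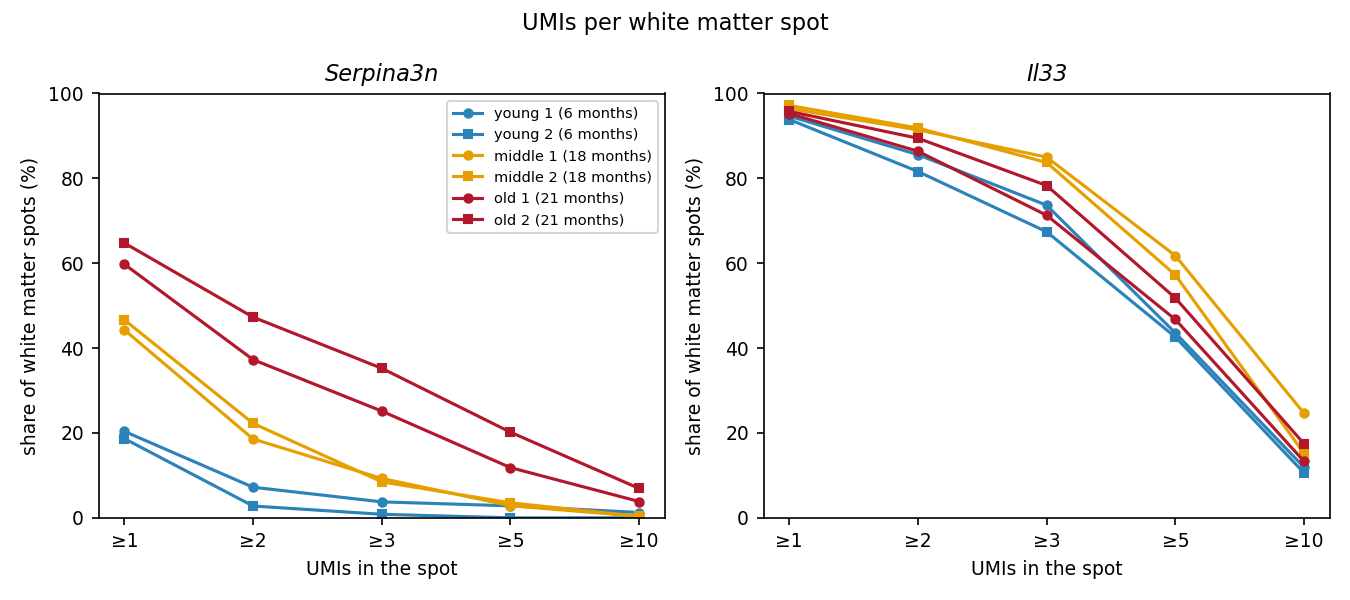
Share of white matter spots (linear axis, percent) with at least 1, 2, 3, 5 or 10 UMIs of Serpina3n (left) and Il33 (right), unthinned, 1 line per section. For Serpina3n the old sections start at 59.8 and 64.8% and the young at 20.4 and 18.7%, while all 6 Il33 lines start between 93.9 and 97.2%.

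White matter spots with a Serpina3n UMI were compared with those without, as a description. C4b, a complement gene, was higher in spots with Serpina3n in 6 of 6 sections, by a log2 ratio of 0.089 to 1.35 (median 1.02). In old 1 it measured 1000.1 CPM in 202 spots with and 400.8 CPM in 136 spots without a Serpina3n UMI. Gfap, an intermediate filament of astrocytes, was higher by 0.28 to 1.71 (median 0.71) and Vim, another such filament, by 0.42 to 2.12 (median 0.89), both in 6 of 6 sections. The summed astrocyte markers were higher by only 0.030 to 0.27 (median 0.060). The myelin markers ran from -0.30 to 0.23 and Il33 from -0.32 to 0.36, each positive in 3 of 6 sections. Spots with a Serpina3n UMI were deeper in 5 of 6 sections (14873 against 11488 UMIs in young 1, 9983.5 against 10883 in old 1, by median), and the part of depth was not tested. The white matter spots also pool the core and border clusters, which differ in Serpina3n, and the part of that position was not tested either.

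Over 54 sums (9 regions in 6 sections), the genes most alike each member were taken among 9803 genes with a mean of at least 10 CPM, by Pearson's r of log2(CPM + 1). The sums share sections, libraries and depth, so r is a description. For Il33 the first 5 were Gatm (0.99), an enzyme of creatine synthesis, Qdpr (0.99), Ermn (0.99), a cytoskeletal protein of oligodendrocytes, Tmem88b (0.99) and Pdlim2 (0.99). Spearman's rho gave these 5 genes as well. For Serpina3n they were Itm2b (0.80), Arhgef28 (0.75), Gabarap (0.75), Fam3a (0.74) and Stat3 (0.74), and Spearman's rho shared only Itm2b with them. Serpina3n and Il33 had an r of 0.39 with each other.

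The pathways around the genes were then read from lists of genes, tested with edgeR's quasi-likelihood test over all genes and Benjamini-Hochberg adjustment (threshold 0.05). The lists were chosen with earlier results of these data known. Calls among their genes therefore describe these sections and give no independent support. Old against young, 29 of 17673 genes were called in the whole section (0.164%), 16 higher (0.0905%) and 13 lower (0.0736%). In white matter 219 of 13032 were called (1.68%). Of these, 160 were higher (1.23%) and 59 lower (0.453%). All CPM values of these genes are means ± SD of 2 sections.

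Of the other genes of the Serpina3 cluster, paralogs next to Serpina3n whose similar sequences can share reads, 9 of 10 listed were in the counted gene set. Of these, 7 had any UMI, 189 in all against 10113 for Serpina3n. Serpina3g had 19 to 26 UMIs per section, Serpina3k 0 to 12, Serpina3c 2 to 5, Serpina3f 0 to 5, Serpina3b and Serpina3i 0 to 2 and Serpina3m 0 or 1. None was tested in white matter, and in the whole section only Serpina3g was, at a log2 fold change of 0.16 (edgeR adjusted p = 0.859). Of the serine proteases and other inhibitors, 0 of 10 were called in white matter and 0 of 13 in the whole section. Cst3, the cystatin C gene, measured 5313 ± 148 CPM in young and 6742 ± 81 in old white matter (log2 fold change 0.34, edgeR adjusted p = 0.209), and DESeq2 gave it an adjusted p of 0.0285. Serpine2 had a log2 fold change of 0.25 in white matter (adjusted p = 0.366), and in the whole section Cst3 had 0.15 (0.346) and Serpini1 0.022 (0.904).

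Serpina3n is a known target of the gp130 and STAT3 pathway, by which cytokines of the interleukin 6 family act on astrocytes. Of its genes, 1 of 11 was called in white matter and 0 of 12 in the whole section. Stat3 itself rose in white matter from 42.8 ± 2.7 to 64.4 ± 1.9 CPM, by 0.59 on the log2 scale (SE 0.12, edgeR adjusted p = 0.0113). The call was lost without young 2 (0.0949), without old 1 (0.0513), without old 2 (0.155) and with DESeq2 (0.255). For Stat3 the whole-section value was 0.20 (0.1996). Socs3, a target and inhibitor of the pathway, had 0.14 in white matter (0.947) and 0.092 in the whole section (0.833). The whole-section values were -0.013 (0.946) for Cntfr and -0.10 (0.552) for Jak1.

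Of the reactive astrocyte genes, 6 of 27 were called higher in white matter and 0 lower, with a median log2 fold change of 0.91 against 0.0034 over all genes tested. Over the whole section 0 of 33 were higher and 1 lower, with a median of 0.25 against -0.0023. Timp1, an inhibitor of metalloproteases, rose in white matter from 1.09 ± 0.82 to 12.2 ± 1.2 CPM (log2 fold change 3.42, SE 0.40, edgeR adjusted p = 2.48e-05). Osmr, the oncostatin M receptor, rose from 2.86 ± 0.67 to 9.99 ± 2.92 CPM (1.80, adjusted p = 0.0051). Its call was lost without young 2 (0.0505), without old 1 (0.105) and with DESeq2 (0.118), and in the whole section Osmr had 0.36 (0.430). Aspg rose by 1.59 (0.0024), lost without old 2 (0.106) and with DESeq2 (0.0584). S1pr3, a receptor of sphingosine 1-phosphate, rose by 1.14 (0.0381), and its call was lost without young 2 (0.248), middle 1 (0.108), middle 2 (0.106) or old 2 (0.464). It was also lost with DESeq2 (0.433), with slide as a block (0.294), with the replicate block (0.0535), with only the groups compared (0.116), with thinning (0.0601), with spots of at least 5000 UMIs (0.0655) and at resolution 1.2 (0.0631). Gfap rose from 549 ± 50 to 1040 ± 319 CPM (0.92, adjusted p = 0.0373), and among the fits with 1 section left out its call held only without old 1, with 0.212, 0.207, 0.207, 0.207 and 0.0693 without young 1, young 2, middle 1, middle 2 or old 2. The call was also lost with DESeq2 (0.0672), with only the groups compared (0.182), with spots of at least 5000 UMIs (0.0633) and at resolution 1.2 (0.0777). Over the whole section Gfap had 0.91 (0.214), and there it was called with DESeq2 (0.0189) and without old 1 (0.00249). The count of 6 was 3 without young 2, 11 without old 1 and 2 without old 2, and DESeq2 called 1. The 1 gene called lower in the whole section was Hspb1, a small heat shock protein, at -0.54 (0.0290). Its call was lost without middle 1 (0.0812), middle 2 (0.0837), old 1 (0.102) or old 2 (0.270), with slide as a block (0.137) and with only the groups compared (0.0935).

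Of the genes of disease-associated oligodendrocytes, 3 of 9 were called higher in white matter and 0 of 9 in the whole section. C4b rose in white matter from 132 ± 23 CPM in young to 772 ± 47 in old, with 283 in middle (log2 fold change 2.55, SE 0.12, edgeR adjusted p = 1.01e-11), and it was called in every alternative run. Over the whole section it had 2.13 (0.120), where DESeq2 did call it (1.23e-10). Klk6, a serine protease of oligodendrocytes, rose by 0.66 (0.0307) and H2-K1, a class I antigen-presenting molecule, by 0.59 (0.0062). The Klk6 call was lost without young 1 (0.162), middle 1 (0.152), middle 2 (0.148) or old 2 (0.363), and the H2-K1 call without young 1 (0.134) or old 2 (0.181). With slide as a block both calls were lost (0.105 for Klk6, 0.0575 for H2-K1). DESeq2 did not call H2-K1 (0.0712), and Klk6 was also lost with only the groups compared (0.143), at resolution 0.5 (0.0525) and in the top 10% of spots by myelin share (0.201). The count of 3 was 1 without young 1, 1 without old 2 and 5 without young 2. For Apod the whole-section value was 0.37 (0.473).

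Of the genes of interleukin 33 signalling, 0 of 11 were called higher and 1 lower in white matter, with a median log2 fold change of -0.15. The receptor gene Il1rl1 had 5 to 13 UMIs per section, 54 in all, and 1 to 3 in white matter, too few to be tested there. Its whole-section log2 fold change was 1.06 (edgeR adjusted p = 0.412). Il1rap measured 85.0 ± 3.8 CPM in young and 68.0 ± 1.3 in old white matter (-0.32, adjusted p = 0.224) and had -0.070 (0.777) in the whole section. Nfkbia, the inhibitor of NF-kB that NF-kB itself induces, fell in white matter from 103.6 ± 4.8 CPM in young to 36.4 in middle and 37.9 ± 2.1 in old (-1.45, SE 0.11, adjusted p = 1.27e-07). It also fell in the whole section (-0.82, adjusted p = 0.0036), and both calls held in every alternative run. Of the other interleukin 1 family genes, 0 of 2 were called in white matter and 0 of 5 in the whole section. Il18 had -0.21 (0.562) and Il1r1 0.27 (0.911) in white matter.

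**Figure D5:**
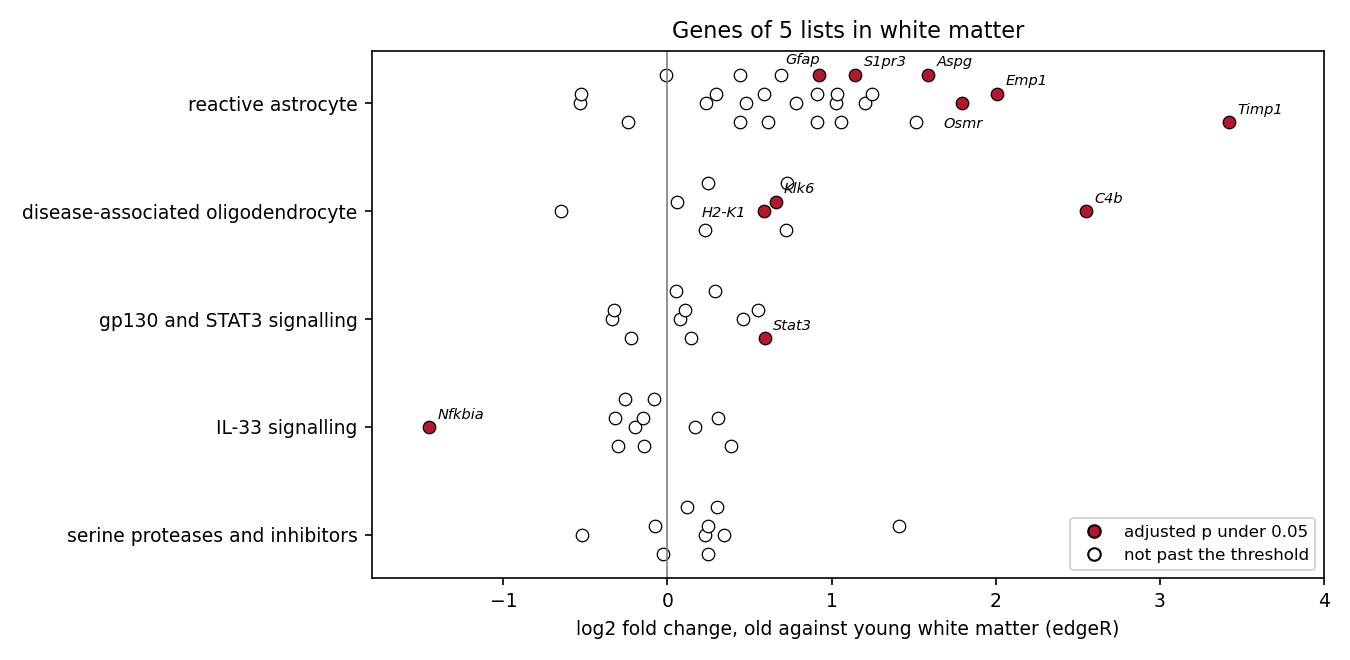
Log2 fold change of old against young white matter (linear axis, edgeR) for the genes of 5 lists, each point 1 gene, filled where the adjusted p was under 0.05. In the reactive astrocyte list 6 of 27 genes are filled, all to the right of 0, and in the interleukin 33 list the 1 filled gene is Nfkbia at -1.45.

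Some markers of other cell types also differed between ages in white matter. The 8 microglia markers summed to 595 to 661 CPM in young, 810 to 870 in middle and 1067 to 1296 in old white matter. Of these, 5 of 8 were called higher in old against young, where 1.23% of all genes tested were. The 10 astrocyte markers summed to 3053 to 3260 CPM in young, 3094 to 3213 in middle and 3283 to 3474 in old white matter, with 0 of 10 called. Of the myelin markers, 1 of 10 was called lower in old against young, and of the oligodendrocyte precursor markers 1 of 6 (0.453% of all genes tested). Between middle and young, 5 of 10 myelin and 2 of 6 precursor markers were called lower (1.2% of all genes tested). In that contrast 1 of 8 microglia and 1 of 5 neuron markers were called higher (1.34%). The 5 neuron markers summed to 1087 to 1324 CPM in young, 1525 to 1828 in middle and 1278 to 1448 in old white matter, with 0 of 5 called in old against young. Across spots ranked by microglia share in place of myelin share, the log2 ratio of Serpina3n ran from 0.088 to 3.67 over sections and that of Il33 from 1.53 to 2.60. For Serpina3n it ran from 0.63 to 2.18 by choroid plexus share and from 0.19 to 2.39 by ependymal share. By astrocyte share it ran from -0.084 to 1.52 for Serpina3n. By neuron share the log2 ratio was negative in every section, from -2.52 to -0.48 for Serpina3n and from -1.85 to -1.46 for Il33. What part the markers of these cell types have in the Serpina3n levels was not tested.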

How the data were processed

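Serpina3n and Il33, and the gene lists, were chosen with earlier results of these data known. Each matrix that the authors deposited gives unnormalized counts of UMIs for every gene in every spot, from Space Ranger 1.3.1 per the file headers, while the submitters' processing notes name Space Ranger 3.1 and mm10. The annotation is not given in the sources used here. Gene positions are from GENCODE M21, to which 32235 of the 32285 identifiers could be matched. Images and spot coordinates were not used here. Section totals of 60939185 to 77557934 UMIs and white matter sums of at least 4010092 UMIs set the counting precision.

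Spots with under 500 UMIs were left out. After scaling each spot to 10000 UMIs and taking logs, 2000 variable genes (no list genes, neither member) were reduced to 30 principal components, joined by 20 neighbours and clustered (Leiden, resolution 0.8, scanpy 1.11.5). A cluster took a region's name with at least 3 markers among its 50 leading genes, 1 or more among the first 10, and 2 times the markers of the next region. No doublet caller was run. Names are rebuilt from markers, so regions may differ from the authors', and 4 clusters (3286 spots) stayed unnamed. UMIs were summed per section and region and tested with the quasi-likelihood method of edgeR 4.0.16 (robust, filterByExpr, TMM), 1 fit of all 6 sections by age group that left 3 residual degrees of freedom. Of 16741 spots, 91.4 to 100% per section carry a barcode that another section also has, since slides share 1 barcode grid.

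Beside the members, the genes named were Il1rl1, Il1rap, Stat3, Socs3, Osmr, C4b, Gfap and the detected Serpina3 cluster. From each list up to 4 called genes of largest change with a mean of at least 5 CPM were added, or, with none called, the 2 of highest mean. The 5 genes most alike each member were also named. A result that this rule would name is not reported here. The tests were repeated with slide or replicate as a block, DESeq2 1.42.0, no count filter or a minimum of 10 counts per section, RLE factors, the newer edgeR dispersion, thinned sums, only the groups compared, spots of at least 5000 UMIs, resolutions 0.5 and 1.2, white matter as the 10% of spots of largest myelin share, other definitions of the myelin share, and each section left out. In simulated counts, with a change of 1 (log2) given to 200 genes, the test recovered 78.2% in whole sections (17673 genes) and 72.8% in white matter (13032 genes), and other genes made up 11.2% and 11.1% of calls. Permutation tests used scipy 1.17.1.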

Additional observations from a re-analysis of the deposited data

How the results depend on the processing

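No called result changed direction, and of the values without a test Il33 changed sign in 2 contrasts, given below. Between old and young, the count of genes called in the whole section (29) was 179 with DESeq2, 113 without a filter on low counts, 7 with slide as a block, 7 with only the groups compared, and 6 (without old 2) to 75 (without young 2) with a section left out. In white matter (219) it was 95 with DESeq2, 442 without a filter, 114 with slide as a block, 395 in the top 10% of spots by myelin share, and 75 (without old 2) to 242 with a section left out. The 6 reactive astrocyte genes called there became 1 with DESeq2, 13 without a filter, 11 in the top 10% of spots, and 2 to 11 with a section left out. The 3 disease-associated oligodendrocyte genes became 1 with slide as a block and 1 to 5 with a section left out. The cause of these shifts was not tested.

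For Serpina3n in white matter, old less young was 3.25 in the top 10% of spots and 2.00 to 3.30 with a section left out, and middle less young 0.23 to 1.53. In the whole section old less young ran from 0.96 to 1.53 and old less middle from 0.24 to 0.81. For Il33 in white matter, middle less young was 0.023 at resolution 0.5, -0.15 in the top 10% of spots and -0.11 to 0.021 with a section left out, so its sign is not settled. Old less middle was 0.23 in the top 10% and 0.085 to 0.22. In the whole section Il33 ran from 0.065 to 0.34 for old less young and from -0.12 to 0.15 for old less middle, which also crosses 0. The mean log2 ratio of Serpina3n by myelin share was 2.18 with the top 5% of spots, 1.59 with the top 20%, 2.04 with 8 myelin genes and 2.07 with myelin and mitochondrially encoded genes left out of the total, each with p = 0.03125 in the exact sign-flip permutation test. In spots of at least 5000 UMIs that ratio did not pass the threshold. With a section left out, the ratio of Il33 ran from 3.85 to 3.95 and the difference from -2.23 to -1.44. With 5 sections the smallest p is 0.0625, so neither could pass. Spearman's rho kept 1 of the 5 genes most alike Serpina3n.

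Replicate numbers are shared by the ages, and in the middle and old sections they coincide with the slide. The correlation of replicate 1 less replicate 2 in whole sections was 0.019 for young and middle and 0.13 for young and old. It was largest, 0.24, for middle and old, the ages paired by slide. In white matter the correlations were 0.054, -0.035 and 0.032 in the same order, so no pairing was seen there. With the replicate block edgeR called 21 genes in whole sections and 225 in white matter, and old less young in white matter was 2.53 for Serpina3n and 0.11 for Il33. For the named genes, 532 of the alternative values stayed on their side of the threshold, 47 lost it and 4 gained it. Depth limits Serpina3n in the subcortical GABAergic spots (4 to 21 UMIs per section) and Il1rl1 in white matter (1 to 3 UMIs).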

Other observations

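The hypothalamic spots of middle 2 with many Serpina3n UMIs were looked at after their values had been seen, and the genes below were chosen then. In that section 18 of 417 hypothalamic spots had at least 10 Serpina3n UMIs and held 42.7% of the region's Serpina3n UMIs. Their Serpina3n level was 905 CPM, against 48.1 CPM in the other 399. Cartpt measured 6101 CPM in them against 593 in the others, Gal 992 against 70.4, Npy 638 against 103, Ghrh 236 against 20.1, Pomc 191 against 24.1 and Agrp 186 against 7.46, all neuropeptide genes of the hypothalamus. Pmch and Hcrt were lower in them, with 1602 against 5935 and 206 against 1453 CPM. Gfap measured 17.8 CPM in them (7 UMIs) against 46.9 in the others, and Il33 38.1 (15 UMIs) against 56.1. C4b was higher in them, with 78.8 CPM (31 UMIs) against 29.6. The cluster led by Hcrt, Pmch and Avp had 190.7 CPM of Serpina3n in middle 2, 83.3 in old 2 and 21.7 to 41.7 in the other 4 sections. These are values of 1 section without a replicate.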
